A study of Mus musculus with 18 samples.

Results

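The RNA levels of 8 enzymes that make serine and pass its carbon to folate were measured in B cells of allergic mice. The enzymes are *Phgdh*, *Psat1*, *Psph*, *Shmt1*, *Shmt2*, *Mthfd1*, *Mthfd1l*, and *Mthfd2*. They were chosen by gene symbol, and all 8 symbols were found, each as 1 row, among the 55491 genes of the deposited table. All 8 passed the filter on low counts in every comparison.

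Serine is built from a glycolytic intermediate in 3 consecutive steps, and its side carbon is then handed to folate. The folate-bound unit feeds the synthesis of purines and thymidylate and the remethylation of homocysteine. The route runs in parallel in mitochondria and cytosol, and formate travels from the first compartment to the second. Lymphocytes that divide after activation are known to raise this route, as are germinal center B cells, which divide in follicles of spleen and of Peyer's patches.

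B cells came from the spleen or from Peyer's patches of female BALB/cJ mice aged 10 to 12 weeks and were profiled in bulk by RNA-Seq. Peyer's patches are clusters of lymphoid follicles in the gut wall. All mice, controls included, had been sensitized intraperitoneally with 20 μg ovalbumin (OVA) and 1 mg alum on days 0 and 14, so no group was unsensitized. On days 28 and 42 they were injected intravenously with 100 μL PBS, with 100 μg soluble OVA, or with 2.5 mg OVA NPs, which are polymer nanoparticles that encapsulate OVA, and cells were taken on day 44. Each of the 6 combinations of tissue and treatment had 3 libraries, 18 in all, and these are labelled as biological replicates. B cells were isolated by negative magnetic selection, which removes labelled other cells and leaves B cells of every stage together. Peyer's patches were digested with collagenase and spleens were not, so tissue and dissociation cannot be told apart in a comparison of the tissues.

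Libraries held 14177253 to 30052297 counts. Levels are given as CPM, the count of a gene scaled to library size, with TMM normalization over the 18 libraries, and 3 counts corresponded to 0.105 to 0.220 CPM, a limit that covers counting error only. The 6 B cell markers summed to 5430 to 8790 CPM. Transcripts of other cells were present. The 8 markers of intestinal epithelium summed to 8.63 to 12.5 CPM in spleen libraries and 207 to 1075 CPM in Peyer's patch libraries. Of these, *Fabp2* was at 0 in 9 libraries and reached 325 CPM, and *Vil1* was at 0 in 6 and reached 253 CPM. The 9 myeloid markers summed to 57.6 to 306 CPM over all libraries. Of the 8 T cell markers, *Lck* made up most of the sum. The highest of the others was *Cd3g*, at up to 9.42 CPM, and *Cd3d* stayed at or under 2.94 CPM. In bulk RNA, fewer cells of a type and less RNA per cell cannot be told apart.

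A gene was counted as a DEG at an adjusted p under 0.05 (edgeR's quasi-likelihood test, Benjamini-Hochberg adjustment over all tested genes) with an absolute log2 fold change above 0.25. Values of the individual libraries follow the order of their replicate numbers, which carry no ranking.

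*Phgdh*, phosphoglycerate dehydrogenase, catalyzes the first and committed step of serine synthesis (GRCm38 chr3:98313170-98339990, minus strand). In the spleen it stood at 69.2, 75.5 and 81.8 CPM in PBS-treated mice, at 96.3, 88.2 and 90.2 CPM after soluble OVA, and at 89.2, 82.6 and 87.9 CPM after OVA NPs. Peyer's patch libraries stood at 87.3, 78.7 and 73.4 CPM, 103, 96.2 and 101.7 CPM, and 55.7, 67.8 and 69.5 CPM in the same order. The OVA NP group of Peyer's patch was the lowest of the 6 groups, and its 3 libraries lay below all 3 PBS libraries of that tissue. The highest and lowest group means differed 1.56-fold.

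*Psat1*, phosphoserine aminotransferase, catalyzes the second step (GRCm38 chr19:15904678-15947337, minus strand). In the spleen it was measured at 22.9, 24.4 and 26.4 CPM with PBS, at 50.7, 45.3 and 50.8 CPM with soluble OVA, and at 48.8, 44.7 and 42.4 CPM with OVA NPs. The Peyer's patch values were 68.6, 54.6 and 52.00 CPM, 132, 125 and 113 CPM, and 40.3, 60.1 and 56.8 CPM. Both treated spleen groups lay above their PBS group without overlap, and all 3 Peyer's patch libraries of soluble OVA–treated mice lay above every other library. The first OVA NP library of Peyer's patch was the lowest of that tissue. The group means spanned 5.02-fold, from 24.6 ± 1.73 CPM (SD, n = 3) in the spleen with PBS to 123 ± 9.63 CPM (SD, n = 3) in Peyer's patch with soluble OVA.

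*Psph*, phosphoserine phosphatase, releases serine in the last step (GRCm38 chr5:129765558-129787449, minus strand). It was the member that varied least. The spleen libraries held 15.8, 15.7 and 15.96 CPM with PBS, 17.5, 15.6 and 17.3 CPM with soluble OVA, and 17.99, 17.6 and 15.5 CPM with OVA NPs, with overlapping groups. The Peyer's patch libraries held 16.2, 15.1 and 17.3 CPM, 18.4, 20.4 and 21.05 CPM, and 14.02, 12.98 and 15.02 CPM, with no overlap between any 2 of these 3 groups. Its group means spanned 1.43-fold. Of the exon bases of *Psph*, 452 (10.4%) lie on the opposite strand to exons of *Cct6a*, which had up to 6264 counts, and the strand setting of the counting is not given in the sources used here, so part of the counts of *Psph* could belong to *Cct6a*.

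*Shmt2* encodes the mitochondrial serine hydroxymethyltransferase, which splits serine into glycine and a folate-bound carbon (GRCm38 chr10:127517123-127522444, minus strand). Its spleen libraries held 106, 106 and 106 CPM with PBS, 144, 132 and 140.2 CPM with soluble OVA, and 143, 133 and 129.8 CPM with OVA NPs. Its Peyer's patch libraries held 136, 126 and 127 CPM, 189, 186 and 177 CPM, and 111, 113 and 128 CPM. The soluble OVA group of Peyer's patch lay above all other libraries, and the PBS group of the spleen lay below all of them. *Shmt1*, the cytosolic counterpart (GRCm38 chr11:60788104-60811718, minus strand), carries out the same reaction outside mitochondria.

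The spleen libraries held *Shmt1* at 15.5, 15.8 and 14.6 CPM with PBS, 21.8, 22.8 and 21.8 CPM with soluble OVA, and 21.2, 18.3 and 18.1 CPM with OVA NPs. Peyer's patch libraries held *Shmt1* at 31.5, 28.4 and 25.6 CPM, 37.3, 39.9 and 43.3 CPM, and 20.8, 21.6 and 26.04 CPM. In the spleen the 3 treatment groups did not overlap and soluble OVA was the highest, whereas in Peyer's patch the PBS and OVA NP groups shared a range. *Smcr8* on the opposite strand overlaps 184 exon bases of *Shmt1* (4.74%) and had up to 3288 counts, so the same limit applies.

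*Mthfd1* encodes the trifunctional cytosolic enzyme that interconverts formate, formyl-, methenyl-, and methylene-tetrahydrofolate (GRCm38 chr12:76255298-76319803, plus strand). In the spleen it stood at 116, 107 and 104 CPM with PBS, 119.6, 132 and 134 CPM with soluble OVA, and 163, 139.9 and 112 CPM with OVA NPs. The Peyer's patch libraries stood at 76.9, 77.6 and 70.03 CPM, 93.9, 96.4 and 88.2 CPM, and 61.8, 69.3 and 78.6 CPM. It was the only member whose 9 spleen libraries all lay above its 9 Peyer's patch libraries. The spleen libraries of OVA NP–treated mice were spread the most, and the lowest of them lay within the PBS range.

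*Mthfd1l* encodes the mitochondrial enzyme that releases formate from formyl-tetrahydrofolate (GRCm38 chr10:3973118-4167081, plus strand). Its values in the spleen were 78.7, 81.6 and 82.9 CPM with PBS, 98.97, 95.6 and 100.1 CPM with soluble OVA, and 108, 91.7 and 92.3 CPM with OVA NPs. Its values in Peyer's patch were 106, 100.3 and 89.1 CPM, 131, 123 and 116 CPM, and 74.2, 87.3 and 96.2 CPM. Apart from the soluble OVA group of Peyer's patch, which stood above all other libraries, neighbouring groups in the order of means overlapped, and the means spanned 1.52-fold.

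*Mthfd2* encodes the mitochondrial methylene-tetrahydrofolate dehydrogenase and cyclohydrolase of embryonic and dividing cells (GRCm38 chr6:83305691-83325908, minus strand). In the spleen it was at 13.95, 14.04 and 14.9 CPM with PBS, 30.04, 24.9 and 28.2 CPM with soluble OVA, and 25.6, 25.9 and 23.4 CPM with OVA NPs. Peyer's patch libraries were at 41.4, 39.99 and 32.7 CPM, 73.6, 69.7 and 72.2 CPM, and 29.7, 40.1 and 43.3 CPM. The order of groups was that of *Psat1*, and the means again spanned 5.02-fold, from 14.3 ± 0.537 CPM to 71.8 ± 1.99 CPM (SD, n = 3 each). *Psat1* and *Mthfd2* thus had the widest range of the 8 enzymes, against 1.43-fold to 2.63-fold for the other 6.

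**Figure D1:**
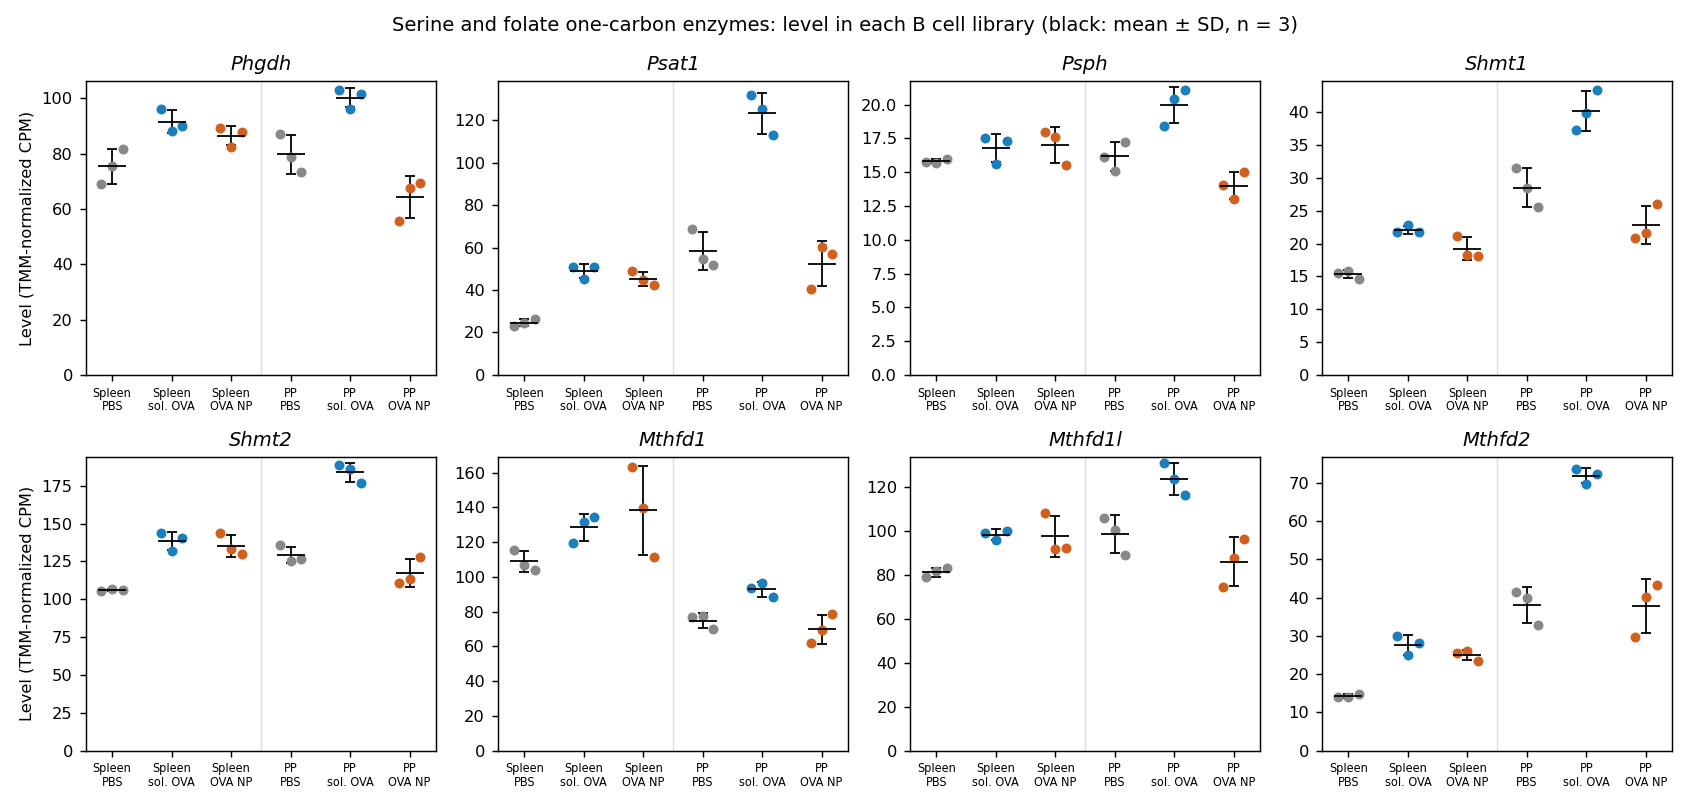
Level of each enzyme in CPM (linear axis from 0) in each of the 18 libraries, by tissue (PP, Peyer's patch) and treatment. Points are libraries and black bars are the mean ± SD of 3. *Psat1* and *Mthfd2* climb from the spleen with PBS to Peyer's patch with soluble OVA over a 5.02-fold range, *Mthfd1* is higher in the spleen, and *Psph* spans 1.43-fold.

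The 300-base promoter windows (250 bases before to 50 after the annotated start) are shown for the 2 enzymes with the widest range and for *Psph*, the one with the narrowest. They were taken from RefSeq on GRCm38.p6 and are given 5′ to 3′ on the coding strand, which is the minus strand for all 3. Capitals mark each CCAAT or its reverse complement, the box that CCAAT-binding factors recognize. For *Psat1* the upstream one of 2 listed starts is shown, and both *Psat1* and *Mthfd2* have exons further upstream in the GENCODE gene span, so these windows are not the only possible starts.

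Psat1 (chr19:15925010-15925309): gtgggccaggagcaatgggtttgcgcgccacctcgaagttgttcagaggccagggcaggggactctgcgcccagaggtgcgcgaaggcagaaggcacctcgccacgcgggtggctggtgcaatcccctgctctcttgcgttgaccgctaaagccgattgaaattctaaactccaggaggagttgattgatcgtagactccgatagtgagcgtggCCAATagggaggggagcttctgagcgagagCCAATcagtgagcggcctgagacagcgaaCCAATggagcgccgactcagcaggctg

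Mthfd2 (chr6:83317555-83317854): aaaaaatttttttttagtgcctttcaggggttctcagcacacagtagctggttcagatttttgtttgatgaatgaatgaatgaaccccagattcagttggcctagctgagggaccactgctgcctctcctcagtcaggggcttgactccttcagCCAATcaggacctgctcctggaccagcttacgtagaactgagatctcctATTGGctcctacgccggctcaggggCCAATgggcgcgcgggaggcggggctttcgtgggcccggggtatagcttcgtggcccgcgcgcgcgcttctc

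Psph (chr5:129787204-129787503): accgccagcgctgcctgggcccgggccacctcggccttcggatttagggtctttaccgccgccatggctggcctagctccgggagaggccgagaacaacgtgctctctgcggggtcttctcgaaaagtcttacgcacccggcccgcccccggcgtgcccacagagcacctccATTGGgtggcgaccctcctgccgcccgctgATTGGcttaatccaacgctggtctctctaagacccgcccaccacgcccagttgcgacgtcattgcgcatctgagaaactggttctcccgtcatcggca

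The windows of *Psat1* and *Mthfd2* held 3 CCAAT boxes each, and that of *Psph* held 2. CCAAT occurred on either strand in windows of 6 of the 8 enzymes (*Mthfd1*, *Mthfd2*, *Phgdh*, *Psat1*, *Psph*, and *Shmt1*). By window it occurred in 6 of the 9 windows of these 8 enzymes, compared with 37.4% of all 32851 windows. GGGCGG, the GC box of Sp factors, occurred for 5 of the 8 enzymes and in 5 of the 9 windows, compared with 35.7% of all windows. For *Psat1* it lies in the window that is not shown. The E-box CACGTG (7.15% of all windows), the amino acid response motif TGATGNAA (3.97%), the cyclic AMP response motif TGACGTCA (1.79%), and the E2F motifs TTTGGCGC (0.514%), TTTCCCGC (1.07%), and GCGCGAAA (0.323%) were found in 0 of the 9 windows of the 8 enzymes, which says only that these letters are not in these windows. Both strands were searched, and each motif was counted separately, so matches of different motifs may overlap.

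Levels of different genes were compared per kilobase of exon. In the spleen with PBS, *Shmt2* led at 34.1 ± 0.144 CPM per kb, followed by *Phgdh* at 30.4 ± 2.55, *Mthfd1* at 24.5 ± 1.37, and *Mthfd1l* at 18.3 ± 0.485 (SD, n = 3). *Psat1* at 5.78 ± 0.406, *Mthfd2* at 4.10 ± 0.154, *Shmt1* at 3.94 ± 0.156, and *Psph* at 3.65 ± 0.0304 CPM per kb formed a lower tier. In Peyer's patch with soluble OVA, *Shmt2* at 59.1 ± 1.99 and *Phgdh* at 40.4 ± 1.44 CPM per kb still led, and *Psat1* at 28.98 ± 2.26 and *Mthfd2* at 20.6 ± 0.57 CPM per kb had reached the range of *Mthfd1l* at 27.8 ± 1.66 and *Mthfd1* at 20.9 ± 0.951. *Psph* at 4.61 ± 0.314 CPM per kb remained the lowest.

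The balance between consecutive or parallel enzymes differed between groups. The within-library ratio of *Psat1* to *Phgdh* per kb was 0.190 ± 0.0029 in the spleen with PBS, 0.312 ± 0.015 with soluble OVA, and 0.306 ± 0.021 with OVA NPs (SD, n = 3). The Peyer's patch ratios were 0.426 ± 0.029, 0.719 ± 0.062, and 0.473 ± 0.048 in the same order. The treated spleen groups lay above their PBS group without overlap, every Peyer's patch library lay above every spleen library, and the OVA NP and PBS groups of Peyer's patch overlapped.

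The ratio of mitochondrial *Mthfd2* to cytosolic *Mthfd1* was 0.168 ± 0.015, 0.276 ± 0.040, and 0.234 ± 0.034 in the spleen with PBS, soluble OVA, and OVA NPs. In Peyer's patch it was 0.646 ± 0.046, 0.988 ± 0.062, and 0.685 ± 0.064. The ratio of mitochondrial *Shmt2* to cytosolic *Shmt1* went the other way between tissues, at 8.68 ± 0.36, 7.83 ± 0.54, and 8.83 ± 0.33 in the spleen and at 5.69 ± 0.42, 5.74 ± 0.61, and 6.44 ± 0.27 in Peyer's patch. The mitochondrial SHMT transcript was thus more abundant per kb than the cytosolic one in all 18 libraries. These ratios are descriptions and were not tested.

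**Figure D2:**
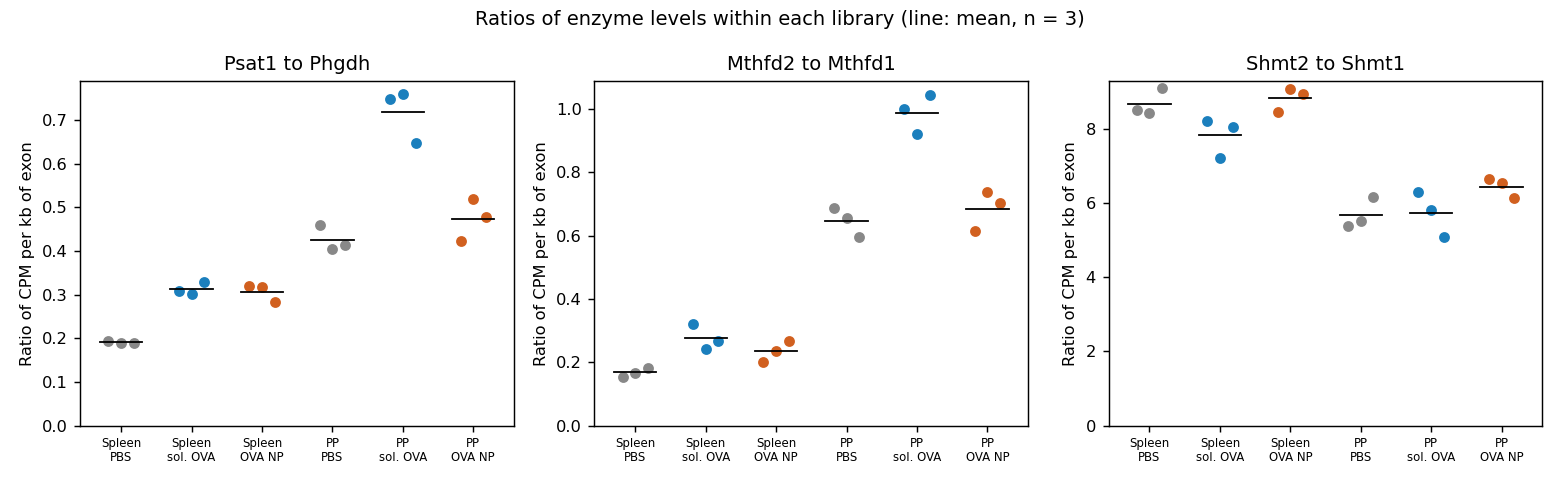
Ratios of CPM per kb of exon between 2 enzymes within each library (linear axes from 0), by tissue and treatment, with points for libraries and a line for the mean of 3. *Psat1* to *Phgdh* and *Mthfd2* to *Mthfd1* are highest in Peyer's patch with soluble OVA (0.719 and 0.988), while *Shmt2* to *Shmt1* is higher in the spleen.

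Whether antigen in either form altered these enzymes was asked first in the spleen. With OVA NPs, *Psat1*, *Mthfd2*, *Shmt2*, *Shmt1*, and *Mthfd1l* rose against PBS, and *Mthfd1*, *Phgdh*, and *Psph* were not DEGs. The 5 of 8 enzymes that rose compare with 8.6% of the 14200 tested genes, and their median log2 fold change of 0.34 over all 8 compares with 0.00062 over all tested genes. On the log2 scale *Psat1* rose by 0.89 (standard error 0.08, adjusted p = 6.45e-06), and *Mthfd2* by 0.81 (standard error 0.09, adjusted p = 3.04e-05). *Shmt2* rose by 0.36 (standard error 0.055, adjusted p = 0.000388). *Shmt1* (0.33, adjusted p = 0.0286) and *Mthfd1l* (0.27, adjusted p = 0.0111) passed by less, and *Phgdh* (0.20, adjusted p = 0.0363) missed the fold-change cutoff. For 6 of the 8 every treated library lay above every PBS library, as for 18.7% of tested genes.

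The calls of these smaller changes were not stable when 1 library was left out. *Shmt1* was no longer a DEG without any 1 of the 3 PBS libraries or of OVA NP replicates 1 and 2 (adjusted p 0.0575 to 0.132). Its log2 fold change stayed at 0.25 to 0.38 over the 6 fits. *Mthfd1l* was lost without PBS replicate 1 (adjusted p = 0.0657) or OVA NP replicate 1 (log2 fold change 0.18). *Mthfd1*, at 0.35 (adjusted p = 0.177), became a DEG without OVA NP replicate 3 (0.49, adjusted p = 0.000103), and *Phgdh* became one without PBS replicate 3 (0.26, adjusted p = 0.0183). The number of enzymes called ran from 3 to 6 across these fits.

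With soluble OVA in the spleen, 6 of the 8 enzymes rose against the same PBS libraries, compared with 10.5% of 14128 tested genes. *Psat1* rose by 1.00 (standard error 0.08, adjusted p = 1.21e-06), a 2.00-fold difference, and *Mthfd2* by 0.96 (standard error 0.094, adjusted p = 8.16e-06). *Shmt1* rose by 0.53 (standard error 0.09, adjusted p = 0.000916), *Shmt2* by 0.39 (standard error 0.056, adjusted p = 0.000293), and *Phgdh* and *Mthfd1l* by 0.28 and 0.28. *Mthfd1* at 0.24 (adjusted p = 0.0221) stayed just under the fold-change cutoff, and *Psph* was at 0.09 (adjusted p = 0.536). Without PBS replicate 1, *Phgdh* was lost (0.23, adjusted p = 0.0715) and *Mthfd1* became a DEG (0.29, adjusted p = 0.0283), and *Mthfd1* also became one without soluble OVA replicate 1 (0.30, adjusted p = 0.00121). For 7 of the 8 the groups did not overlap, as for 19% of all tested genes in that direction. The 2 treatments share these PBS libraries, so their differences from PBS are not independent.

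Set directly against each other in the spleen, OVA NPs and soluble OVA gave no difference that passed the test for any of the 8 enzymes. Of 13840 tested genes, 0.238% were DEGs, 33 in all, and 0 of the 8 enzymes were among them, while 1199 genes had an unadjusted p under 0.05. DESeq2 also called 0 of the 8. The enzymes' log2 differences ran from -0.20 for *Shmt1* (standard error 0.099, adjusted p = 0.606) to 0.11 for *Mthfd1* (standard error 0.13). *Shmt1* was the only member whose 2 groups did not overlap, as did 7.5% of tested genes in that direction, and it had an unadjusted p of 0.0642. *Psat1* differed by -0.11 (standard error 0.079) and *Mthfd2* by -0.15 (standard error 0.094).

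In Peyer's patch the 2 forms of OVA went with different levels. With soluble OVA, 7 of the 8 enzymes rose against PBS, compared with 13.5% of 15792 tested genes, and the median over the 8 was 0.40 against -0.017 over all tested genes. *Psat1* rose by 1.06 (standard error 0.11, adjusted p = 0.000222) and *Mthfd2* by 0.91 (standard error 0.093, adjusted p = 0.0002), 2.09-fold and 1.87-fold. *Shmt2* rose by 0.49 (standard error 0.067, adjusted p = 0.0008) and *Shmt1* by 0.48 (standard error 0.10, adjusted p = 0.00769). *Phgdh*, *Mthfd1l*, and *Mthfd1* rose by 0.32, 0.31, and 0.30, with adjusted p of 0.0153, 0.0182, and 0.0128. *Psph* at 0.29 had an adjusted p of 0.089. All 8 enzymes had soluble OVA libraries above all PBS libraries, as did 22.1% of tested genes, and the 7 calls held without any single library.

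With OVA NPs in Peyer's patch, 0 of the 8 enzymes were DEGs against PBS. In edgeR 0% of the 15798 tested genes were DEGs, with a smallest adjusted p of 0.0522 and 1573 genes at an unadjusted p under 0.05, whereas DESeq2 called 149 genes and 0 of the 8. All 8 estimates were at or below 0, from -0.00 for *Mthfd2* (standard error 0.14) to -0.31 for *Shmt1* (standard error 0.11, adjusted p = 0.441). *Phgdh* at -0.30 (standard error 0.094, adjusted p = 0.379) and *Psph* at -0.20 (standard error 0.12) had groups that did not overlap, as did 10.5% of tested genes in that direction.

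Against soluble OVA in Peyer's patch, all 8 enzymes fell with OVA NPs, compared with 16.3% of 15599 tested genes, and the median over the 8 was -0.63 against 0.025 over all tested genes. *Psat1* fell by 1.23 (standard error 0.14, adjusted p = 0.000862), to 0.427 of its soluble OVA level, and *Mthfd2* fell by 0.92 (standard error 0.12, adjusted p = 0.000968). *Shmt1* fell by 0.80 (standard error 0.10, adjusted p = 0.000826), *Shmt2* by 0.64 (standard error 0.078, adjusted p = 0.000731), and *Phgdh* by 0.63 (standard error 0.09, adjusted p = 0.00127). *Mthfd1l*, *Psph*, and *Mthfd1* fell by 0.51, 0.50, and 0.40, with adjusted p of 0.00483, 0.00955, and 0.01. The groups did not overlap for any of the 8, as for 25.6% of tested genes in that direction, and all 8 calls held without any single library. The soluble OVA libraries are those used in the comparison with PBS.

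**Figure D3:**
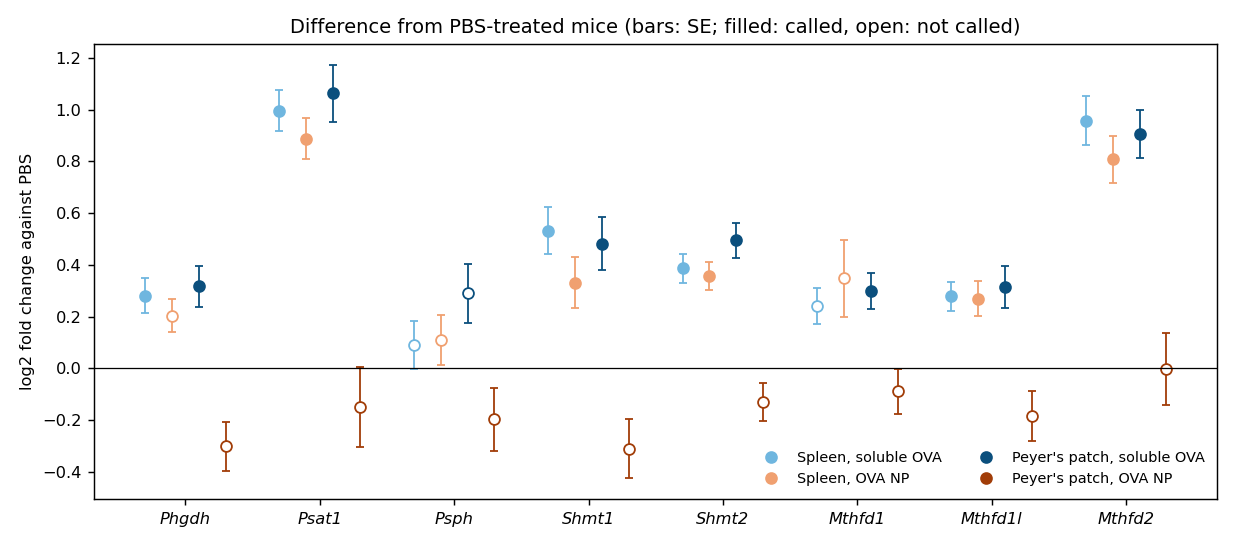
Log2 fold change of each enzyme against PBS-treated mice of the same tissue, with the standard error as bars, and filled points for DEGs. In the spleen both treatments lie above 0 for every enzyme, and in Peyer's patch soluble OVA lies above 0 (1.06 for *Psat1*) while OVA NPs lie at or below it (-0.15 for *Psat1*).

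Whether the effect of a treatment differed between tissues was tested as an interaction. For OVA NPs against PBS, 5 of the 8 enzymes had a lower effect in Peyer's patch than in the spleen, compared with 3.54% of 16619 tested genes. The difference was -1.02 for *Psat1* (standard error 0.19, adjusted p = 0.0113), -0.80 for *Mthfd2* (standard error 0.17, adjusted p = 0.017), and -0.47 for *Shmt2* (standard error 0.088, adjusted p = 0.0104). It was -0.63 for *Shmt1* and -0.49 for *Phgdh* (adjusted p = 0.0292 and 0.0319). *Psat1* and *Shmt2* kept their calls in all 12 fits that left out 1 library. *Mthfd2* lost its call without spleen PBS replicate 1 or 2, spleen OVA NP replicate 1, or Peyer's patch PBS replicate 1 (adjusted p 0.0507 to 0.0533). *Shmt1* and *Phgdh* lost theirs in 8 of the 12 fits each, so that 2 to 6 enzymes were called. With replicate number as a block in the fit, *Shmt2* alone kept its call, and *Psat1* had an adjusted p of 0.079.

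For soluble OVA against PBS, 0 of the 8 enzymes differed between tissues, compared with 6.84% of 16541 tested genes, 1131 in all, and DESeq2 also called 0 of the 8. In edgeR 3468 genes had an unadjusted p under 0.05, and none of the 8 enzymes did. The differences ran from -0.05 (*Mthfd2*, standard error 0.13) to 0.20 (*Psph*, standard error 0.14). For OVA NPs against soluble OVA, a test added after the data were seen, 7 of the 8 had a lower difference in Peyer's patch than in the spleen, compared with 8.96% of 16471 tested genes. *Psat1* differed by -1.10 (standard error 0.17, adjusted p = 0.00113) and *Shmt2* by -0.60 (standard error 0.098, adjusted p = 0.00146), and *Mthfd1* was at -0.50 (adjusted p = 0.0639). *Psph* (-0.51, adjusted p = 0.031) lost its call in 6 of the 12 fits that left out 1 library (adjusted p 0.0579 to 0.0845), and *Mthfd1* gained one without spleen OVA NP replicate 3 or Peyer's patch OVA NP replicate 3 (adjusted p = 0.00763 and 0.0318).

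Between tissues in PBS-treated mice, *Mthfd2*, *Psat1*, *Shmt1*, *Shmt2*, and *Mthfd1l* were higher in Peyer's patch, compared with 25.5% of 15463 tested genes, and *Mthfd1* was lower, compared with 20.1%. *Mthfd2* was higher by 1.43 (standard error 0.10, adjusted p = 3.29e-06), *Psat1* by 1.27 (standard error 0.11, adjusted p = 1.7e-05), and *Shmt1* by 0.92 (standard error 0.10, adjusted p = 5.64e-05). *Mthfd1* was at -0.52 (standard error 0.064, adjusted p = 0.000115), that is 0.696 of its spleen level. *Shmt2* (0.30) and *Mthfd1l* (0.30) were higher by less, the latter falling under the fold-change cutoff without Peyer's patch PBS replicate 1 (0.24). *Phgdh* at 0.10 (adjusted p = 0.339) and *Psph* at 0.05 (adjusted p = 0.696) were not DEGs.

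With soluble OVA, the members higher (26.7% of 15415 tested genes) and lower (24.3%) in Peyer's patch were those found with PBS, at 1.37 for *Mthfd2*, 1.33 for *Psat1*, 0.86 for *Shmt1*, 0.41 for *Shmt2*, 0.33 for *Mthfd1l*, and -0.47 for *Mthfd1*. *Psph* at 0.25 (adjusted p = 0.0695) became a DEG without Peyer's patch soluble OVA replicate 1 (0.31, adjusted p = 0.0337). With OVA NPs, *Mthfd2* was higher in Peyer's patch by 0.64 (standard error 0.13, adjusted p = 0.00303), compared with 22% of 15466 tested genes. *Mthfd1* at -0.94 (standard error 0.14, adjusted p = 0.00177) and *Phgdh* at -0.38 (standard error 0.08, adjusted p = 0.00428) were lower, compared with 15.1%. *Psat1* was at 0.26 (adjusted p = 0.163) and *Shmt1* at 0.30 (adjusted p = 0.0615). Without the first OVA NP library of Peyer's patch both became DEGs (0.39, adjusted p = 0.00257, and 0.34, adjusted p = 0.0399), as did *Shmt1* without spleen OVA NP replicate 1 (0.37, adjusted p = 0.0498).

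**Figure D4:**
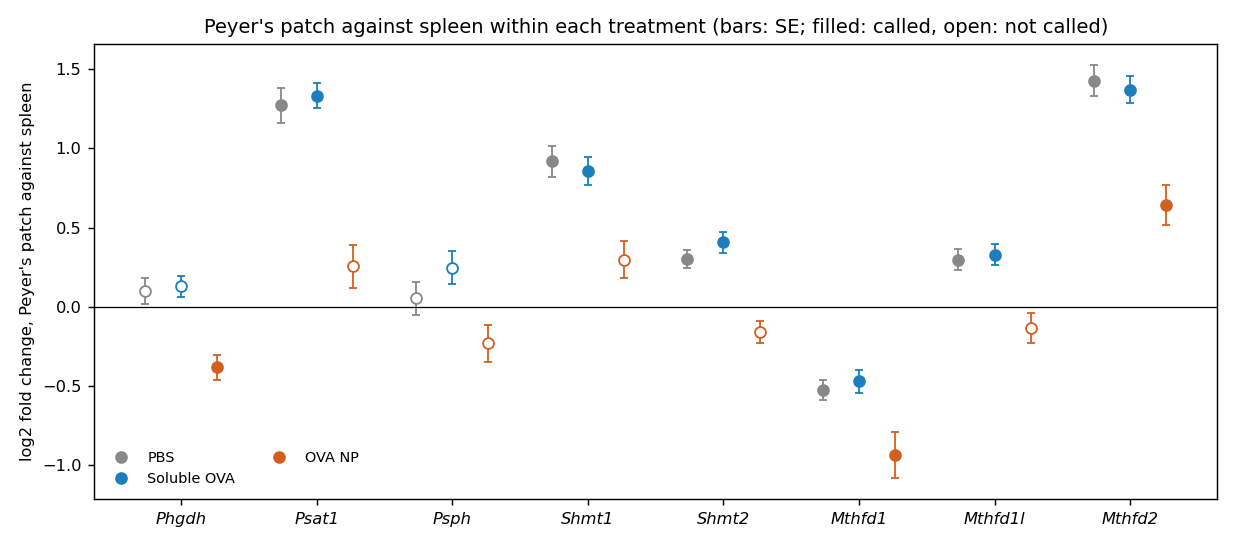
Log2 fold change of each enzyme in Peyer's patch against the spleen within each treatment, with the standard error as bars, and filled points for DEGs. *Mthfd1* is below 0 under all 3 treatments, and the value for *Psat1* is 1.27 with PBS, 1.33 with soluble OVA, and 0.26 with OVA NPs.

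The other genes of the pathway were read from lists of symbols, and their counts stand beside the shares of all tested genes. Against PBS in the spleen, 8.6% of tested genes rose and 6.35% fell with OVA NPs, and 10.5% rose and 6.72% fell with soluble OVA. The shares in Peyer's patch were 13.5% and 13.9% with soluble OVA against PBS, and 13.8% and 16.3% with OVA NPs against soluble OVA. Of the 12 genes of purine synthesis, which takes up formyl groups from folate, 10 rose and 1 fell in Peyer's patch with soluble OVA against PBS (median log2 fold change 0.41), and 11 fell and 1 rose with OVA NPs against soluble OVA (median -0.50). In the spleen 6 rose with OVA NPs and 5 with soluble OVA against PBS, and 0 fell. Of the 11 genes of pyrimidine synthesis, 7 rose and 1 fell in each of these spleen comparisons. Of the same genes in Peyer's patch 9 rose and 1 fell with soluble OVA against PBS, and 9 fell and 1 rose with OVA NPs against soluble OVA. *Rrm2*, a subunit of ribonucleotide reductase, rose by 1.32 in the spleen with OVA NPs and by 1.41 with soluble OVA, and fell by 1.27 in Peyer's patch with OVA NPs against soluble OVA.

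Of 14 further genes of the folate cycle, 10 to 12 were tested against PBS. Of the 10 tested in the spleen, 2 rose and 2 fell with OVA NPs, where 8.6% and 6.35% of all tested genes did. With soluble OVA, 2 of these 10 rose and 0 fell, where the shares were 10.5% and 6.72%. In Peyer's patch 2 rose and 1 fell with soluble OVA against PBS, and 1 rose and 2 fell with OVA NPs against soluble OVA. *Tyms*, thymidylate synthase, rose by 0.91 in the spleen with OVA NPs (adjusted p = 0.000601).

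Other neighbours of the pathway had fewer or mixed DEGs. Of the 3 tested genes of folate transport, 0 were DEGs in any treatment comparison. Of 3 tested genes of glycine cleavage, 1 rose in Peyer's patch with soluble OVA against PBS, and 0 were DEGs in the other 5 treatment comparisons. Of 15 tested genes that carry or use serine, 4 rose and 5 fell in that comparison, and *Slc1a4*, a neutral amino acid carrier, rose by 1.46 (standard error 0.38, adjusted p = 0.0192) at a mean of 1.88 CPM. In the spleen with soluble OVA, *Cth*, which makes cysteine from serine-derived cystathionine, rose by 1.43 (adjusted p = 0.00836) at 1.14 CPM. Of 8 tested genes of the methionine cycle, 1 rose and 1 fell in Peyer's patch with soluble OVA against PBS.

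Of 19 tested genes of the ATF4 and amino acid response, 6 rose and 3 fell in Peyer's patch with soluble OVA against PBS, and 2 rose and 5 fell with OVA NPs against soluble OVA. *Asns*, asparagine synthetase, led them, with 1.23 (standard error 0.13, adjusted p = 0.000235) and -1.21 (standard error 0.16, adjusted p = 0.000914). In the spleen, 4 of 17 tested rose with OVA NPs and 2 with soluble OVA, and 0 fell. Of 5 tested genes of the Myc family list, 0 rose and 1 fell in Peyer's patch with soluble OVA against PBS, and 2 rose and 0 fell with OVA NPs against soluble OVA. *Myc* had a lower effect of soluble OVA in Peyer's patch than in the spleen, by -0.99 (interaction, adjusted p = 0.0204). In OVA NP against soluble OVA in the spleen and OVA NP against PBS in Peyer's patch, 0 genes of any of these lists were DEGs.

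Between tissues the list genes named by size of change were all low transcripts. *Aldh1l1*, a cytosolic formyl-tetrahydrofolate dehydrogenase, was higher in Peyer's patch by 4.21 with PBS, 4.88 with soluble OVA, and 5.11 with OVA NPs, at means of 2.95 to 4.90 CPM. *Slc46a1*, the proton-coupled folate transporter known from the gut, was higher by 3.17, 3.84, and 4.04, at means of 3.84 to 6.64 CPM. *Slc7a11*, a subunit of the cystine and glutamate exchanger, was higher by 3.88 with PBS (standard error 0.75, adjusted p = 0.00194) and by 3.05 with OVA NPs (standard error 0.58, adjusted p = 0.00248), at means of 1.04 and 1.23 CPM. *Cth* was higher by 2.29 with soluble OVA (standard error 0.27, adjusted p = 9.53e-05), at 4.92 CPM. These differences moved with the epithelial markers, of which 7 of 8 were higher in Peyer's patch with PBS, 8 with soluble OVA, and 7 with OVA NPs, and the part of epithelial transcripts in them was not tested.

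Markers of dividing cells moved with the enzymes in every treatment comparison that called them. Of the 15 proliferation markers, *Rrm2* is also in the pyrimidine list above and *Tyms* in the folate list, so the lists are not separate. The 15 proliferation markers summed to 763 to 876 CPM in the spleen with PBS, 1716 to 1901 CPM with soluble OVA, and 1528 to 2003 CPM with OVA NPs. In Peyer's patch they summed to 2230 to 2756, 5027 to 5443, and 1783 to 2593 CPM. All 15 rose in both spleen comparisons with PBS and in Peyer's patch with soluble OVA, all 15 fell with OVA NPs against soluble OVA there, and none was at 0 in any library. The lowest Peyer's patch sum was that of OVA NP replicate 1, which was also the lowest library of that group for every enzyme but *Psph*.

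The DEGs among the 10 germinal center B cell markers went the same way in those comparisons. In the order PBS, soluble OVA, OVA NPs, the 10 markers summed to 109 to 186, 420 to 625, and 380 to 412 CPM in the spleen. In Peyer's patch they summed to 1478 to 1772, 2614 to 2717, and 1087 to 1648 CPM. In the spleen 7 rose with OVA NPs and 9 with soluble OVA, and in Peyer's patch 8 rose with soluble OVA and 8 fell with OVA NPs against it. They parted from the enzymes elsewhere. In the spleen 1 of the 10 fell with OVA NPs against soluble OVA, and 0 of the 8 enzymes did. The soluble OVA effect was lower in Peyer's patch for 6 of the 10 (median -2.40) and for 0 of the 8 enzymes. The difference between OVA NPs and soluble OVA was lower there for 1 of the 10 and for 7 of the 8 enzymes. The 8 plasma cell markers summed to 469 to 750 CPM in the spleen and 1025 to 1201 CPM in Peyer's patch. The share of counts from mitochondrially encoded genes was 2.82% to 3.41% in the spleen, 4.97% to 7.67% in Peyer's patch with PBS or soluble OVA, and 9.08% to 9.80% with OVA NPs. With OVA NPs against soluble OVA in Peyer's patch, 6 of the 8 T cell markers rose and 1 fell, while their sum was 136 to 145 CPM against 160.4 to 180.2 CPM, since *Lck* dominates it, and 3 of 7 tested myeloid markers rose. *Cd8a* was at 0 in 5 libraries, and *Cd8b1* in 3. In the spleen 1 of 8 tested myeloid markers fell with OVA NPs and 3 with soluble OVA, and of 7 tested plasma cell markers 3 rose and 0 fell with OVA NPs, and 3 rose and 1 fell with soluble OVA. The 5 erythroid markers summed to 31.8 to 83.5 CPM in the spleen and to at most 9.83 CPM in Peyer's patch. In Peyer's patch against spleen, 5 of the 6 B cell markers were lower under each treatment. What part these cell states, and this share, have in the enzyme differences was not tested.

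The enzymes differed in how their levels related to the proliferation sum. Per 1000 CPM of these 15 markers, *Psat1* was between 21.9 and 32.0 CPM in all 18 libraries, a 1.46-fold range, and *Mthfd2* between 12.8 and 18.4 CPM, a 1.44-fold range. For *Shmt1* this range was 2.85-fold, for *Shmt2* 4.09-fold, for *Mthfd1l* 4.71-fold, for *Phgdh* 5.60-fold, for *Psph* 5.76-fold, and for *Mthfd1* 8.003-fold. *Phgdh* went from 92.1 ± 7.6 CPM per 1000 CPM of markers in the spleen with PBS to 19.3 ± 1.4 in Peyer's patch with soluble OVA (SD, n = 3). A wide range of this ratio does not mean that an enzyme was unrelated to the sum. Pearson's r of log2 levels with the log2 sum was positive for all 8 enzymes within each tissue. It ran from 0.662 (*Psph*) to 0.991 (*Psat1*) over the 9 spleen libraries. Over the 9 Peyer's patch libraries it ran from 0.841 (*Psph*) to 0.993 (*Psat1*). Over all 18 libraries r was -0.316 for *Mthfd1*, 0.459 for *Phgdh*, and 0.500 for *Psph*. For the other enzymes it ran from 0.829 (*Mthfd1l*) to 0.990 (*Mthfd2*). These are descriptions over libraries that share their groups, and no test was made of them.

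**Figure D5:**
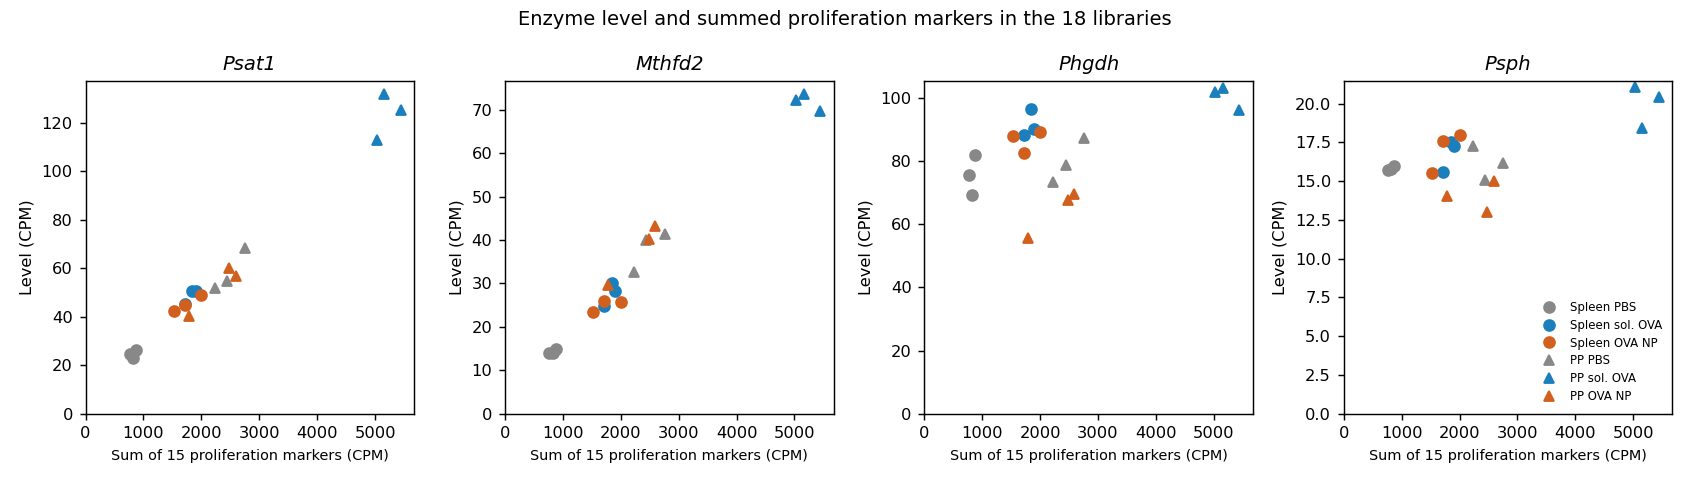
Level of 4 enzymes (CPM) against the summed level of 15 proliferation markers (CPM) in the 18 libraries, on linear axes from 0, with circles for the spleen and triangles for Peyer's patch. *Psat1* and *Mthfd2* lie near a line through the origin (1.46-fold and 1.44-fold range of the ratio), and *Phgdh* and *Psph* do not (5.60-fold and 5.76-fold).

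The genes most like each enzyme were found by Pearson's r of log2 CPM over the 18 libraries among 14091 genes, as a description. The libraries fall into 6 groups, so differences between groups enter these r. For *Mthfd2* they were *Polh* (r = 0.994), a translesion DNA polymerase, and *Hmgb2* (0.994), and for *Psat1* they were *Dlgap5* (0.994), a mitotic spindle protein, and *Mcm3* (0.993), a helicase subunit that is also among the 15 proliferation markers. *Shmt2* was nearest *Fen1* (0.985) and *Mcm7* (0.983), and *Shmt1* nearest *Galk1* (0.973) and *Rfc5* (0.971). *Mthfd1* was nearest *Minpp1* (0.979) and *Wdr12* (0.976), *Mthfd1l* nearest *Psmd1* (0.967) and *Eif3l* (0.964), *Phgdh* nearest *Polr2m* (0.964) and *Mars1* (0.926), and *Psph* nearest *Gpn3* (0.916) and *Tufm* (0.912). After group means were removed, r was 0.884 for *Polh* and 0.859 for *Dlgap5* with their enzymes, and 0.427 for *Galk1*.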

How the data were processed

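B cell RNA was sequenced in 18 libraries, 3 for each of 6 groups taken from the labels. Per the submitters' processing notes, reads were trimmed with cutadapt 2.3, aligned with STAR 2.7.8a to GRCm38, and quantified with RSEM 1.3.3. The deposited values are RSEM expected counts per gene without normalization, made by the authors, and were whole numbers. Library totals (14177253 to 30052297) limit the precision. The 18 replicate pairs within groups differed by more than counting error (chi-square per gene 4.50 to 39.5).

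edgeR 4.0.16 in R 4.3.3 was run on all genes of the libraries compared (filterByExpr with a minimum count of 10 and total of 15, TMM, robust quasi-likelihood F test, Benjamini-Hochberg adjustment). Interactions were called on the adjusted p alone. DESeq2 1.42.0, the tool of the study, was an alternative, as were its size factors, a shared spread, no filter, no fold-change cutoff, a replicate block, and leaving out each library. Standard errors were derived from the F statistic. Levels per kb used GENCODE exon unions on GRCm38, and promoters came from RefSeq (all 8 symbols matched). Scripts were tested on simulated data.

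The members and lists were chosen with earlier results of these data known. The text names all members, in each comparison up to 3 list genes with the largest change among DEGs of at least 1 CPM, and the 2 genes most like each member. 1 gene that this rule names is not reported here. No source says whether replicates came from separate cages or days, so p-values measure the spread between these samples.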

Additional observations from a re-analysis of the deposited data

Results flagged for a closer look

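The effect of OVA NPs against PBS was lower in Peyer's patch than in the spleen for 5 of the 8 enzymes, compared with 3.54% of tested genes (interaction test, edgeR, adjusted p under 0.05). The log2 difference, Peyer's patch minus spleen, was -1.02 for *Psat1*, -0.80 for *Mthfd2*, -0.63 for *Shmt1*, -0.49 for *Phgdh*, and -0.47 for *Shmt2*. Of the 12 fits that left out 1 library, *Shmt1* and *Phgdh* lost their calls in 8 each and *Mthfd2* in 4. With the replicate block, *Shmt2* alone kept its call.

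The difference between OVA NPs and soluble OVA also depended on tissue, in a test added after the data were seen. It was -1.10 for *Psat1*, -0.76 for *Mthfd2*, -0.60 for *Shmt2*, -0.59 for *Shmt1*, -0.54 for *Phgdh*, -0.51 for *Psph*, and -0.49 for *Mthfd1l*. These are 7 of the 8 enzymes, compared with 8.96% of tested genes in that direction. *Psph* lost its call in 6 of the 12 fits that left out 1 library. Both tests use the same OVA NP libraries. In both tests the effect on all 15 proliferation markers was also lower in Peyer's patch than in the spleen. Their part in the enzyme differences was not tested. Groups of 3 are too small for a test of single outlying libraries.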

How the results depend on the processing

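Of the values of single enzymes under settings other than leaving out a library, 528 kept their direction and side of the threshold, 13 passed it newly, 7 no longer passed, and 4 reversed. All 4 reversals were *Mthfd2* in Peyer's patch with OVA NPs against PBS, at 0.0025 with DESeq2, 0.011 with a shared spread, 0.0026 with DESeq2 size factors, and 0.017 without the filter on low counts. Calls in Peyer's patch for soluble OVA against PBS and for OVA NPs against soluble OVA did not change for any enzyme in any setting. DESeq2 called 105 genes for OVA NPs against soluble OVA in the spleen, 149 for OVA NPs against PBS in Peyer's patch, and 1290 and 1816 genes in the interactions for OVA NPs and soluble OVA. Without the filter on low counts 230 and 146 genes were called in the first 2 of these, and 5 enzymes between tissues with OVA NPs. With a shared spread, 1 gene was called for OVA NPs against PBS in Peyer's patch. The causes were not tested.

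Same-numbered libraries did not deviate together in any comparison (correlations from -0.38 to 0.23, not all above 0.1 in any), so replicate numbers were not taken as pairs. With the replicate block, 3119 genes were called for OVA NPs against soluble OVA in Peyer's patch, 244 genes and 1 enzyme (*Shmt2*) in the OVA NP interaction, and 548 genes in the soluble OVA interaction.

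Leaving out each library in turn gave 3 to 6 enzymes called for OVA NPs against PBS in the spleen, 3 to 5 between tissues with OVA NPs, and 2 to 6 in the OVA NP interaction. The genes called ran from 0 to 40 for OVA NPs against soluble OVA in the spleen, 0 to 8 for OVA NPs against PBS in Peyer's patch, 291 to 945 in the OVA NP interaction, and 655 to 1279 in the soluble OVA interaction. The log2 differences that changed sign were small. For OVA NPs against soluble OVA in the spleen they ran from -0.030 to 0.25 for *Mthfd1*, -0.091 to 0.040 for *Mthfd1l*, -0.074 to 0.0066 for *Shmt2*, and -0.024 to 0.090 for *Psph*. *Mthfd2* ran from -0.099 to 0.13 in Peyer's patch with OVA NPs against PBS, and *Psph* from -0.011 to 0.10 between tissues with PBS. In the soluble OVA interaction the ranges were -0.022 to 0.15 for *Mthfd1l*, -0.14 to 0.025 for *Mthfd2*, -0.12 to 0.037 for *Shmt1*, -0.013 to 0.12 for *Phgdh*, and -0.0029 to 0.21 for *Psat1*.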
